A study of Caenorhabditis elegans with 6 samples.

Results

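Dense core vesicles carry neuropeptides and other slowly released cargo out of neurons. They bud from the Golgi apparatus, mature while cargo is sorted into or out of them, travel along axons and fuse with the plasma membrane when calcium rises. The 8 genes described here act at these steps in Caenorhabditis elegans: unc-31, unc-108, ric-19, rund-1, cccp-1, tbc-8, eipr-1 and hid-1. They were chosen by name for their published roles in dense core vesicle biogenesis and release, with earlier results of these data known. All 8 were found among the 41862 features of the deposited table.

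RNA was sequenced from immunoprecipitated neuronal nuclei of worms synchronised at L1, the first larval stage. The mutant group has 3 libraries from strain OH17055, labelled as the CUT sextuple mutant, null for the homeobox genes ceh-38, ceh-44 and ceh-48 and for the group ceh-41, ceh-21 and ceh-39. The control group has 3 libraries from strain OH16748, labelled wildtype with the transgene otIs790. Both strains carry UPN INTACT, a system that tags nuclei of chosen cells for pull-down, and both were grown on NA22 bacteria. Only the pulled-down fraction was analysed, with no input beside it. The labels do not say whether replicates came from separate cultures, so p-values measure only the spread between these libraries.

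Library depth, recovered from the steps in the values, was 15500882 to 20844986 reads in the mutant libraries and 18768796 to 20352179 in the controls. Of the CUT genes, 5 of 6 were lower in every mutant library than in every control library, and ceh-44 was higher in every mutant library, which goes against a reading of its null label as a loss of RNA. The word mutant therefore means a library with that label. All 10 pan-neuronal markers were detected, with summed normalized counts of 123117 to 283328 in mutants and 230096 to 339940 in controls. Markers of other tissues were also present, none of them at or under 3 reads in all 6 libraries. The 10 body wall muscle markers summed to 181478 to 214298 normalized counts in mutants and 151887 to 174904 in controls. Of these markers 1 rose, unc-89, with 62403 normalized counts on average in mutants and 32261 in controls, and 6 of the 10 had differences below 0, with a median of −0.037. Their mean log2 values overlapped between the groups. The 6 pharyngeal muscle markers summed to 55920 to 77828 in mutants and 28437 to 43399 in controls, without overlap, and 3 of them rose. The 6 germline markers summed to 493 to 876 in mutants and 283 to 419 in controls, again without overlap, and the sums of the intestine, epidermis and glia markers overlapped. Of 6 epidermis markers tested, however, 2 fell, dpy-5 (−2.13) and elt-1 (−0.81), and 1 rose, bli-1 (1.69). No intestine or glia marker fell or rose past the threshold given below. The part of these shifts in the results below was not tested, and fewer nuclei of a type cannot be told apart here from less RNA per nucleus.

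Values are normalized counts, which are gene read counts scaled by the authors with 1 size factor per library. A difference is given as mutant minus control in log2(normalized count + 1), a scale that understates changes of low genes, from limma fitted across 17900 features with a mean of at least 10 normalized counts. A gene was called at a Benjamini-Hochberg adjusted p under 0.05 over all of these features. All 8 genes passed the filter, and the fewest reads of any of them in a library were 453, for eipr-1.

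Of the 8 genes, 3 fell in the mutant, 0 rose and 5 did not pass the test. Among all features tested 10.5% were called lower and 7.56% higher, that is 1886 lower and 1353 higher. On recovered reads the same 3 genes were lower past the threshold with edgeR, where 9.65% of features were, and with DESeq2, where 12.4% were. The genes that fell were hid-1, rund-1 and ric-19, to 45.6%, 50.9% and 59.9% of their control means. Their products act at the Golgi and on maturing vesicles, upstream of release. The 5 others were unc-31, unc-108, tbc-8, cccp-1 and eipr-1, and only eipr-1 had a difference above 0. Of these, unc-108, tbc-8 and cccp-1 also belong to the RAB-2 part of vesicle maturation, so that step did not set apart the genes that fell. The mutant libraries all lay below the control libraries for 3 of the 8 genes, beside 20.4% of features, and all above for 0 of the 8, beside 19.5%. The median log2 difference of the 8 genes was −0.51, beside −0.02 for all features tested.

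**Figure D1:**
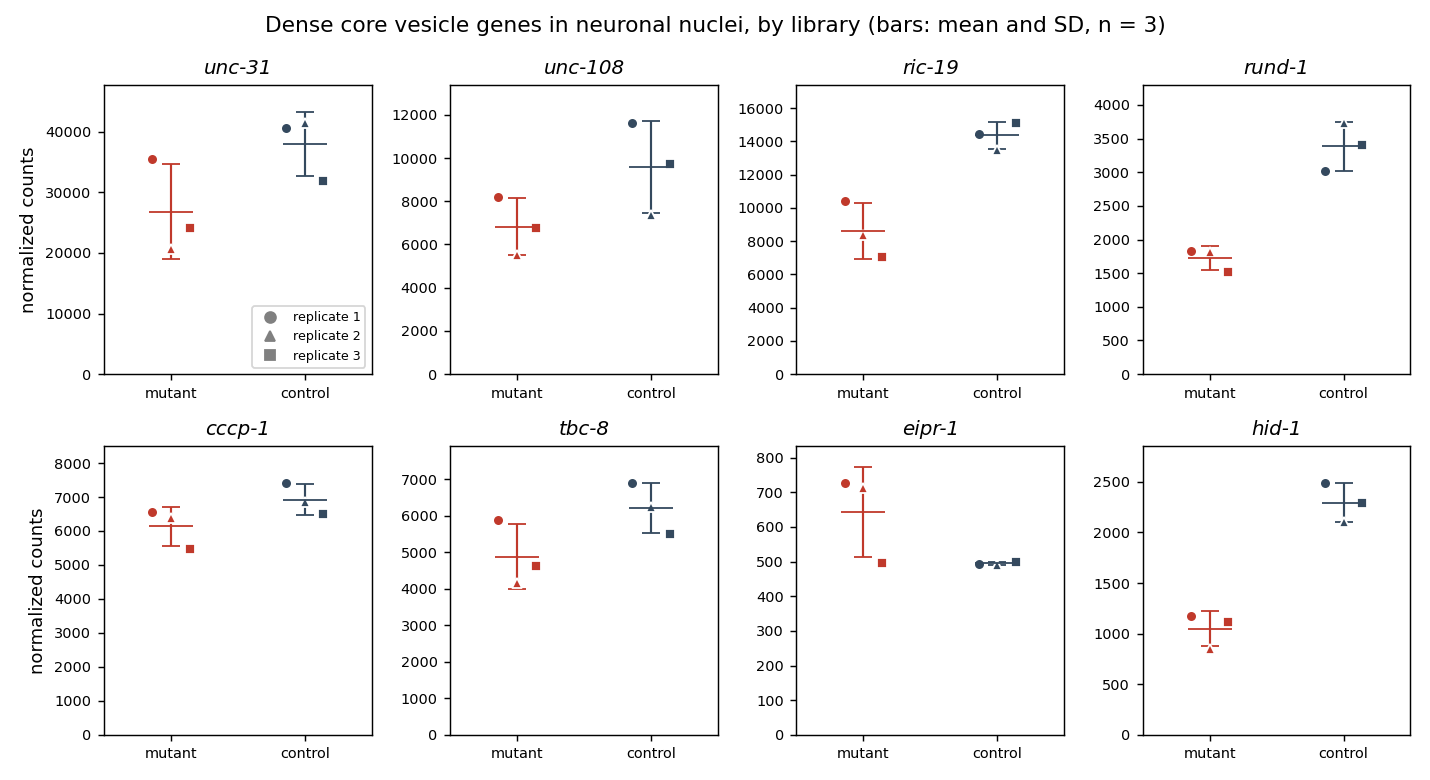
Normalized counts of the 8 dense core vesicle genes (vertical axes from 0, each with its own scale) in the mutant and control libraries; points are libraries, marked by replicate number, and bars give the mean and SD (n = 3). The groups are apart for hid-1, rund-1 and ric-19 and overlap for the 5 others.

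The gene hid-1 encodes a conserved Golgi-associated protein needed for sorting neuropeptide cargo into dense core vesicles. It had 1173, 850 and 1118 normalized counts in mutant replicates 1, 2 and 3, against 2485, 2104 and 2295 in control replicates 1, 2 and 3. Every mutant library lay below every control library, and the highest mutant value was well under the lowest control value. The log2 difference was −1.14 (SE 0.18, 95% interval −1.54 to −0.75, limma adjusted p 0.00284). This was the largest difference of the 8 genes in either direction.

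Several of the genes work with the small GTPase RAB-2, which is encoded by unc-108 and keeps cargo in maturing vesicles. Counts of unc-108 were 8175, 5528 and 6756 in mutant replicates 1, 2 and 3, against 11638, 7370 and 9732 in control replicates 1, 2 and 3. The groups overlapped, because mutant replicate 1 was above control replicate 2. The log2 difference of −0.48 (SE 0.22, 95% interval −0.98 to 0.01) did not pass, with a limma adjusted p of 0.150. Each mutant library was below the control library of the same number, and with the replicate number as a block unc-108 passed at a limma adjusted p of 0.0246. That fit called 4 of the 8 genes lower, beside 15.2% of features.

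RIC-19, the worm ortholog of the islet cell autoantigen ICA69, is a RAB-2 effector. Its gene had 10386, 8391 and 7026 normalized counts in mutant replicates 1, 2 and 3, against 14456, 13497 and 15120 in control replicates 1, 2 and 3. The groups did not overlap. The log2 difference was −0.76 (SE 0.19, 95% interval −1.18 to −0.33, limma adjusted p 0.0240). The call was lost without mutant replicate 3 (−0.62, adjusted p 0.113) and without control replicate 1, 2 or 3 (adjusted p 0.0797, 0.0669 and 0.0888). It was also lost in limma without a variance trend, at an adjusted p of 0.0632.

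RUND-1, a RUN domain protein, is a second RAB-2 effector of the vesicle maturation pathway. Its gene had 1834, 1821 and 1522 normalized counts in mutant replicates 1, 2 and 3, against 3014, 3737 and 3410 in control replicates 1, 2 and 3. The mutant libraries were close together, and all lay below the controls. The log2 difference was −0.97 (SE 0.16, 95% interval −1.34 to −0.61, limma adjusted p 0.00433). For hid-1 and rund-1 the call held in each of the fits that left out 1 library, with adjusted p of at most 0.0180 and 0.0310.

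The coiled-coil protein CCCP-1, related to human CCDC186, is also a RAB-2 effector, but its RNA differed little. Counts of cccp-1 were 6555, 6373 and 5483 in mutant replicates 1, 2 and 3, against 7401, 6861 and 6488 in control replicates 1, 2 and 3. Mutant replicate 1 lay just above control replicate 3, so the groups overlapped. The log2 difference of −0.17 had a 95% interval of −0.54 to 0.19 (limma adjusted p 0.471), and under equal library totals it was 0.0019. A ratio of 0.690 to 1.14 of mutant to control thus lay within the interval.

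TBC-8 is a Rab GTPase-activating protein that acts on RAB-2 and binds RIC-19. Its gene had 5877, 4160 and 4624 normalized counts in mutant replicates 1, 2 and 3, against 6890, 6243 and 5503 in control replicates 1, 2 and 3. Mutant replicate 1 was above control replicate 3, and the other mutant libraries were below all controls. The log2 difference of −0.36 (SE 0.18, 95% interval −0.77 to 0.06) did not pass, with a limma adjusted p of 0.201.

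EIPR-1 is a WD40 protein that binds EARP, a tethering complex of endosomes. Counts of eipr-1 were 726, 712 and 495 in mutant replicates 1, 2 and 3, against 493, 491 and 500 in control replicates 1, 2 and 3. Mutant replicates 1 and 2 lay above all controls and mutant replicate 3 lay among them. The log2 difference of 0.36 (SE 0.19, 95% interval −0.07 to 0.79) did not pass, with a limma adjusted p of 0.214.

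UNC-31, the worm CAPS protein, acts last in the pathway, where it prepares docked dense core vesicles for calcium-triggered fusion. Its gene had 35585, 20652 and 24119 normalized counts in mutant replicates 1, 2 and 3, against 40592, 41504 and 31948 in control replicates 1, 2 and 3. Mutant replicate 1 exceeded control replicate 3, while mutant replicates 2 and 3 were below all controls. The log2 difference was −0.53 (SE 0.25, 95% interval −1.08 to 0.01, limma adjusted p 0.153). Without mutant replicate 1 it was −0.76 and passed at a limma adjusted p of 0.0247.

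Mutant replicate 1 had the highest normalized count of the 3 mutant libraries for each of the 8 genes. The median log2 deviation of the 8 genes from their control means was −0.14, −0.77 and −0.56 in mutant replicates 1, 2 and 3, against 0.10, −0.01 and 0.01 in control replicates 1, 2 and 3. The mean log2 value of the 10 pan-neuronal markers was 12.56, 11.70 and 12.09 in mutant replicates 1, 2 and 3, against 12.80, 12.49 and 12.47 in control replicates 1, 2 and 3, so mutant replicate 1 was again the highest of its group. It was also the shallowest of the 6 libraries. The part of marker level and depth in these values was not tested.

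Ratios of 2 genes within a library do not depend on how libraries are scaled, and they were formed after the values were seen, as a description. The ratio of hid-1 to cccp-1 normalized counts was 0.179, 0.133 and 0.204 in mutant replicates 1, 2 and 3, against 0.336, 0.307 and 0.354 in control replicates 1, 2 and 3. That of rund-1 to cccp-1 was 0.280, 0.286 and 0.278 in the mutants, against 0.407, 0.545 and 0.526 in the controls. Neither ratio overlapped between groups, so hid-1 and rund-1 were lower relative to cccp-1 in every mutant library than in every control library. The genes hid-1 and rund-1 had the largest differences of the 8 genes and cccp-1 the smallest, so these separations restate those differences. The ratio of ric-19 to its partner unc-108 was 1.27, 1.52 and 1.04 in the mutants, against 1.24, 1.83 and 1.55 in the controls, and these ranges overlapped.

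Levels of the genes were compared per kilobase of exon, using exon lengths of the WBcel235 annotation. In controls ric-19 was highest, at 9688 ± 550.4 normalized counts per kb (SD, n = 3), followed by unc-108 at 8381 ± 1871 and unc-31 at 7259 ± 1007. The range of unc-108 overlapped those of ric-19 and unc-31, which were apart from each other. All 3 stood above cccp-1, at 2863 ± 190.0 per kb. Below cccp-1 came tbc-8, rund-1, hid-1 and eipr-1, the last at 371 ± 3.41 per kb. In mutants the same 3 genes led, and there all 3 ranges overlapped. Their levels were 5966 ± 1159 per kb for unc-108, 5804 ± 1140 for ric-19 and 5115 ± 1492 for unc-31. At the lower end the order turned: eipr-1 was at 483 ± 97.2 and hid-1 at 416 ± 68.6 per kb in mutants, with overlapping ranges, against 371 ± 3.41 and 911 ± 75.7 in controls, where they were apart.

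**Figure D2:**
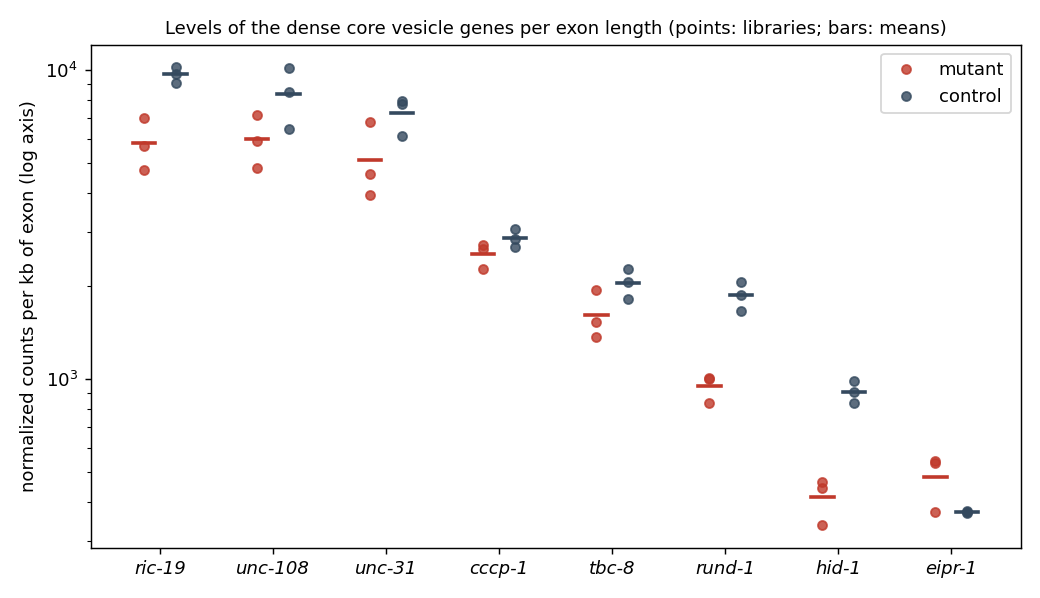
Normalized counts per kilobase of exon (log axis) of the 8 genes, ordered by their control mean; points are libraries, mutant left and control right, and bars are means. The genes ric-19, unc-108 and unc-31 lead in both groups, and hid-1 overlaps with eipr-1 in the mutant only.

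The wider pathway was examined in 5 lists of other genes, which hold 43 genes, 42 of them in the table and 41 tested. Of these, 10 fell, 0 rose and 31 did not pass, a share of 24.4% called lower beside 10.5% of all features. Their median log2 difference was −0.40. The lists were drawn up with earlier results of these data known, and the count changed with the processing, from 2 to 21 over the alternatives run. The direction split also changed with the scaling: 7 were lower and 3 higher under equal totals, 8 lower and 2 higher under quantile normalization, and 1 lower and 2 higher when centred on the pan-neuronal markers.

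Among 8 genes for dense core vesicle cargo and its processing, 3 fell and all 8 had differences below 0. The genes that fell were egl-3, the proprotein convertase that cleaves neuropeptide precursors (−1.19), sbt-1, the 7B2 chaperone of that convertase (−1.18), and pghm-1, a peptide amidating enzyme (−0.72). Their limma adjusted p values were 0.0148, 0.0220 and 0.0346. The carboxypeptidase gene egl-21 stayed just outside, at −0.81 and a limma adjusted p of 0.0569. The vesicle membrane protein gene ida-1, a relative of IA-2, differed by −0.50 (limma adjusted p 0.125).

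EARP contains VPS-50, and it shares VPS-51, VPS-52 and VPS-53 with the related GARP complex, which has VPS-54 instead. Of these 5 subunit genes vps-50 alone fell, with 638 ± 54.4 normalized counts in mutants and 1146 ± 94.3 in controls (SD, n = 3 each). Its log2 difference was −0.84 (SE 0.16, limma adjusted p 0.00761). The other 4 had differences of 0.12 to 0.40, on the same side of 0 as eipr-1, and none passed. The largest of them was vps-54, at 0.40 with a limma adjusted p of 0.125.

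Among 14 release genes 3 fell. These were aex-6, which encodes RAB-27 (−0.75), cab-1, whose product binds the Rab exchange factor AEX-3 (−0.87), and aex-4, a SNAP-25 family gene known for vesicle release from the intestine (−1.29). Counts of aex-4 were low, at 15.9 ± 3.92 in mutants and 39.7 ± 5.51 in controls (SD, n = 3 each). The core fusion genes unc-64, ric-4, snb-1, unc-18 and unc-13 had differences from −0.63 to 0.16, and none passed. Of 5 transport genes tested unc-16, the JIP3 adaptor gene, fell (−0.74), and unc-104, the kinesin that carries dense core vesicles, differed by −0.53 (limma adjusted p 0.113). Of 9 Golgi and endosome Rab genes and regulators 2 fell, rab-6.2, with 199 ± 18.5 normalized counts in mutants and 399.8 ± 54.4 in controls (SD, n = 3 each), and rab-14, with a log2 difference of −0.73. On the other side, tbc-2 and rabs-5 were higher in every mutant library than in every control library, at 0.46 and 0.48. Neither passed, with limma adjusted p of 0.0629 and 0.0873. Over the 5 lists the mutant libraries lay all above the controls for 3 of 41 genes (with vps-54), beside 19.5% of features. They lay all below for 17 of the 41, beside 20.4%.

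**Figure D3:**
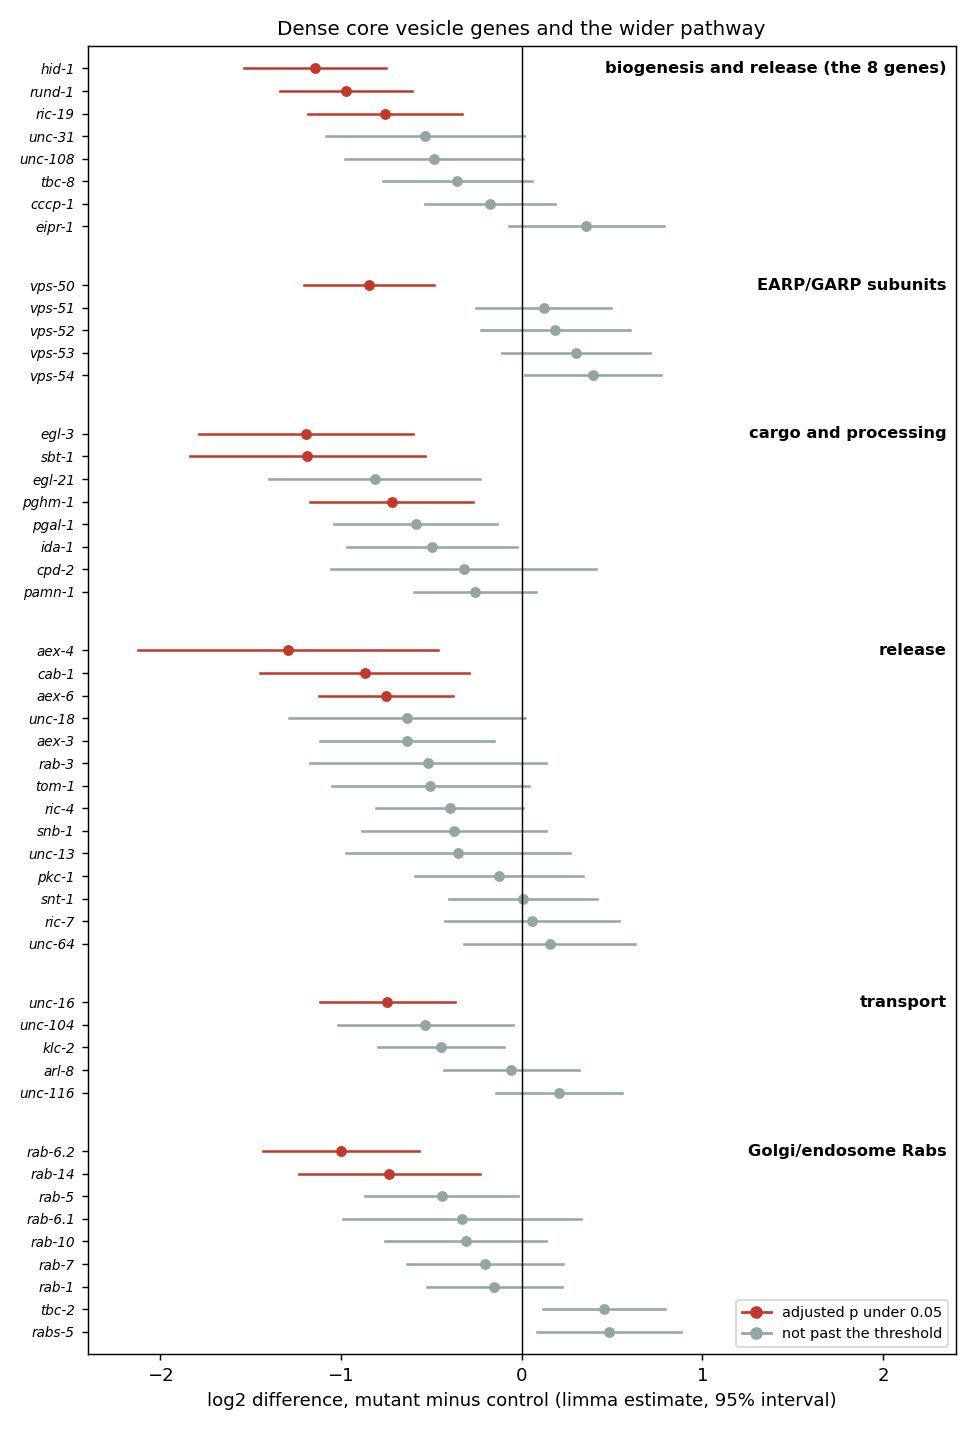
Log2 differences, mutant minus control, with 95% limma intervals for the 8 genes and the 41 other pathway genes tested, grouped by role; red marks an adjusted p under 0.05. All 13 red genes lie below 0. Of the 41 other pathway genes 10 lie above 0, among them unc-64, tbc-2, rabs-5 and the EARP and GARP subunits other than vps-50.

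Relative to the pan-neuronal markers the falls of hid-1, rund-1 and ric-19 were smaller. Such centring moves the difference of every feature by the same amount, set by the markers' own mean difference. The median of all features tested moved with it, from −0.02 to 0.45, and the median of the 8 genes stayed −0.49 from that median. The 10 pan-neuronal markers had a median log2 difference of −0.51, close to the median of the 8 genes, and 2 of them fell (rgef-1 and unc-119). Centring each library on the mean of these markers, an alternative chosen after seeing the data, left 0 of the 8 genes called by limma, with 2 at an unadjusted p under 0.05, hid-1 as lower and eipr-1 as higher. The log2 difference of hid-1 was then −0.67 (limma adjusted p 0.0797), that of rund-1 −0.50 (0.228) and that of ric-19 −0.28 (0.352). In that fit 1.74% of features were called lower and 7.39% higher. The genes unc-31 and unc-108 were close to 0 there, at −0.06 and −0.01, while eipr-1 was at 0.83, beside 0.45 for the median of all features.

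**Figure D4:**
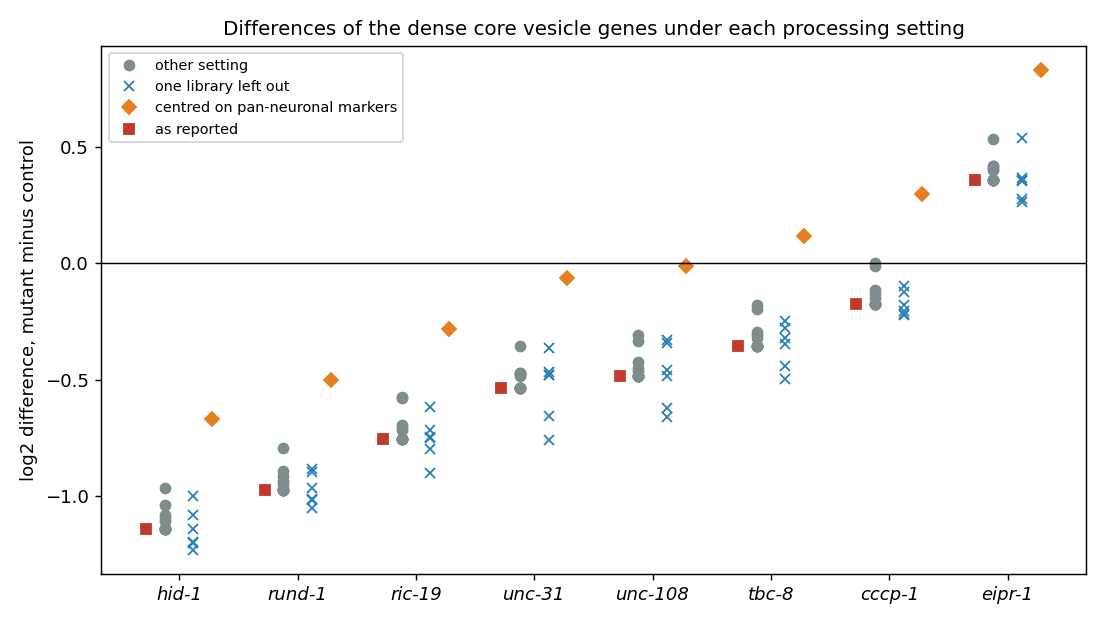
Log2 difference, mutant minus control, of each gene as reported (red squares), with 1 library left out (blue crosses), with each library centred on the pan-neuronal markers (orange diamonds) and under the other settings (grey circles). The genes hid-1, rund-1 and ric-19 stay below 0 in all of them, and cccp-1 and tbc-8 are above 0 when centred on the markers.

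Position in the genome was the other property the genes could be compared by. Per the WBcel235 annotation hid-1 and rund-1, which had the largest differences, are both on chromosome X. The other genes are on chromosomes I (unc-108, ric-19 and eipr-1), III (cccp-1 and tbc-8) and IV (unc-31). X-linked features had a median log2 difference of −0.27 over 2674 tested, with 14.3% called lower and 2.51% higher. On chromosome I the median was 0.15 over 2418 tested, with 7.36% called lower and 11.4% higher. The shares called lower on II, III, IV and V were 9.81%, 8.05%, 9.79% and 13.2%, so that of V was near that of X. Medians there were 0.06, 0.11, −0.05 and −0.08. The differences of hid-1 and rund-1 lay below the X median, and whether linkage has a part in them was not tested.

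Overlapping and neighbouring genes were examined because the use of strand in counting is not stated. Inside unc-31 lie the snRNA genes ZK897.3 and ZK897.4 on the same strand, with log2 differences of −0.93 and −0.73 (limma adjusted p 0.0855 and 0.0773). Reads of these and of unc-31 may not be fully separable. Mean normalized counts in mutants and controls were 58.2 and 115 for ZK897.3 and 165 and 270 for ZK897.4. Those of unc-31 were far higher, at 26785 and 38015. The gene rund-1 overlaps lpr-7 on the opposite strand, which had 154 normalized counts in mutants and 176 in controls on average, far fewer than rund-1. Of the nearest protein-coding neighbours with a test, only arrd-16, next to cccp-1 on the same strand, passed: its log2 difference was −0.99 (limma adjusted p 0.0137), where cccp-1 itself differed by −0.17.

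The genes most like the 3 that fell were sought among 4796 others with a mean of at least 500 normalized counts, by the mean absolute distance between log2 values over the 6 libraries, each gene centred on its own mean. For hid-1 these were xbx-6 and uaf-1, at distances of 0.055 and 0.070 log2 units. For rund-1 they were R13H4.2 and Y17G7B.20, at 0.033 and 0.048. For ric-19 they were T27E4.7 and molo-1, at 0.054 and 0.059. Among the 8 genes the closest pair with a called gene was ric-19 and rund-1, at 0.130. Many other genes were closer: rund-1 ranked 93 in nearness to ric-19, and ric-19 ranked 58 in nearness to rund-1. The nearest of the 8 genes to hid-1 was rund-1, at rank 350. The gene eipr-1 was the farthest from each of the 3, at 0.557 to 0.750. The distance includes the group difference, and eipr-1 alone of the 8 genes had a difference above 0.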

How the data were processed

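The table deposited by the authors holds a depth-normalized signal: gene counts divided by a DESeq2 size factor per library, per the table's name. The submitters' processing notes name STAR, featureCounts and DESeq2. Genome build, annotation, strand setting and multi-mapping treatment are not given in the sources used here, so no coordinates are printed. Whole reads were recovered for 100% of values (tolerance 0.01 reads). DESeq2 size factors recomputed from them matched the deposited scaling within 2.08e-11.

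Tests used limma 3.58.1 in R 4.3.3 on log2(value + 1), with a variance trend and group as the sole factor, and were tested on simulated data. Recovered reads were also tested with edgeR 4.0.16 and DESeq2 1.42.0. Also tried were quantile, equal-total and median scaling, pan-neuronal marker centring, pseudocounts of 0.5 or 5, dropping the filter or raising it to 50, a replicate block, limma with no variance trend, and leaving out each library. Same-numbered libraries, numbered in the titles, deviated together across genes (correlations 0.25, 0.20 and 0.15 for numbers 1, 2 and 3). For libraries of different numbers the correlations were −0.20 to 0.0049. Deviations were taken from each group's own mean, so values above 0 for same numbers push those for different numbers below 0. No label says what a shared number stands for, so the block was kept as an alternative and the reported fit does not use it.

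Named genes were the 8 genes, pathway genes past the threshold, overlapping and nearest genes, and the 2 most alike in pattern for each of the 3 called genes; other genes are given for comparison after their values were seen. Genes and lists were chosen with earlier results of these data known. Of 109 list genes, 2 (tbc-4 and opt-2) had no row under those symbols. Read numbers and their precision cover counting error only.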

Additional observations from a re-analysis of the deposited data

How the results depend on the processing

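The number of the 8 genes called was 3 as reported, 2 to 4 when 1 library was omitted, 4 with the replicate block and 0 with pan-neuronal marker centring. edgeR and DESeq2 on recovered reads each called 3, namely hid-1, rund-1 and ric-19. The median log2 difference of the 8 genes was −0.69 to −0.35 with 1 library left out and −0.037 with marker centring. It was −0.33 under equal totals, which moved the median of all features to 0.16, and stayed −0.49 from that median. With marker centring the median of all features was 0.45, and that of the 8 genes also stayed −0.49 from it. Below-0 differences turned for cccp-1 under equal totals (0.0019) and marker centring (0.30) and for tbc-8 under marker centring (0.12). The 10 pathway calls became 6 with median centring, 6 without a filter, 21 with the replicate block (20 lower and 1 higher), 5 without a variance trend, 3 with marker centring (1 lower and 2 higher) and 2 to 17 with 1 library left out. The replicate block changed no call of the 8 genes other than that of unc-108. Calls across the table, 3239 as reported, numbered 1635 with marker centring and 1506 to 4117 with 1 library left out, lowest without control replicate 2 (1506), mutant replicate 3 (1523), control replicate 1 (1575) or control replicate 3 (1659). Lower calls made up 58.2% of them as reported, 38.9% under equal totals and 19.1% with marker centring. What lies behind these shifts was not tested. Each of the 8 genes had at least 453 reads in every library, which bears on counting error only.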
